A study of Homo sapiens with 12 samples.

Results

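The YTH and IGF2BP reader genes are YTHDF1, YTHDF2, YTHDF3, YTHDC1, YTHDC2, IGF2BP1, IGF2BP2 and IGF2BP3, 8 genes taken by name, of 12283 protein-coding genes that held at least 1 peak of N4-acetylcytidine (ac4C) in SW620 cells, a human colorectal cancer line grown in L15 medium with serum. Fragmented RNA had been pulled down with an antibody against ac4C and sequenced (acRIP-seq), and each library was reduced by the authors to a list of mRNA peaks. The control group, shControl, labelled WT, held 3 immunoprecipitated libraries, and the shNAT10 group held 3 libraries from cells in which a short hairpin RNA was directed against NAT10, the enzyme that writes ac4C. Both are stable lentiviral lines selected with puromycin, and the labels do not say which of the study's NAT10 hairpins was used. The comparison asks which peaks depend on NAT10. A peak was counted in a gene when its midpoint lay in the gene span of GRCh38 on the same strand, so that for each gene the number, the place and the score of the peaks could be set side by side in the 6 libraries. The lists hold no read counts, the depth is unknown, and a gene can lack a peak because little of its mRNA is present or because little of it carries ac4C. These cannot be told apart without the input libraries, which were not used here.

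Readers are proteins that bind a chemical mark on RNA and pass it on to the machinery of RNA fate. The YTH domain is an aromatic cage for N6-methyladenosine (m6A), and the IGF2BP proteins, which bind RNA through RRM and KH domains, are also described as m6A readers. The cytoplasmic YTHDF proteins act in translation and decay of marked mRNAs, YTHDC1 acts in the nucleus in splicing and export, YTHDC2 is an RNA helicase known from meiosis, and the IGF2BP proteins stabilise their targets, MYC mRNA among them. IGF2BP1 and IGF2BP3 are oncofetal proteins that return in many tumours, colorectal cancer included. None of these proteins is measured here. What the lists show is where peaks of the ac4C pulldown were called in their own genes.

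Of the 6 member regions with a score of 3100, at which many scores stop, in any library, 5 began within 1000 bases of the annotated gene start. How many of all regions do so is not given here. The outermost bases are shown for 3 of the 5, which had the same outer edge in at least 5 libraries and an entry in the RefSeq promoter table of GRCh38.p14. The first IGF2BP1 region had the same outer edge in all 6 libraries, but its gene had no entry. The bases shown are the first 30 inside the peak on the transcript's strand, from that table, in lower case before the annotated gene start and in capitals from it.
YTHDF1, minus strand, chr20:63216205-63216234: cgcaggcgcgaagtgtggcggcccggcgcg
YTHDC1, minus strand, chr4:68350060-68350089: TTTCGGGAGCGGGATTGTTTCGCGCAGGAA
IGF2BP2, minus strand, chr3:185825027-185825056: ggggggcggaggagGAGGAGAGACGAGGGC
The YTHDF1 peak opened 103 bases before the annotated start in 5 libraries, the IGF2BP2 peak 14 bases before it and the YTHDC1 peak 1 base after it. G and C made up 83.3%, 76.7% and 56.7% of these stretches. The spacing of cytosines known from ac4C sites, searched as CNN 3 times in a row and then C, was absent from the sense strand of all 3, and on the other strand it matched 7 times, in overlapping positions, in the IGF2BP2 stretch alone. Of the 35116 promoter windows in the table, 16.5% held it on the sense strand of the first 30 bases of the gene, 33.9% on either strand there, and 18.2% on the sense strand of the 30 bases before the start. Of the 8 members, 6 had an entry in that table.

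The 8 genes held 14, 12 and 14 peaks in shControl replicates 1 to 3 and 17, 18 and 14 in shNAT10 replicates 1 to 3. The means were 13.3 ± 1.15 (SD, n = 3) and 16.3 ± 2.08 (SD, n = 3), and the groups touched at 14 (two-sided exact permutation test, p = 0.3; 3 libraries against 3 cannot go below 0.1). As a share of all peaks in the library, this was 0.0768%, 0.0531% and 0.0698% in shControl and 0.0591%, 0.101% and 0.0735% in shNAT10 libraries (exact permutation test, two-sided, p = 0.5). The higher sum lay in IGF2BP1, with 1, 1 and 3 against 4, 7 and 4 peaks, the 1 member of 8 whose numbers did not overlap between the groups. Of all genes with a peak, 1.57% had numbers that were all higher in shNAT10 libraries and 0.651% numbers all higher in shControl libraries. Without IGF2BP1, the other genes held 13, 11 and 11 peaks in shControl and 13, 11 and 10 in shNAT10 libraries. The 5 YTH genes held 8, 7 and 6 against 8, 6 and 6 peaks, and the 3 IGF2BP genes 6, 5 and 8 against 9, 12 and 8.

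**Figure D1:**
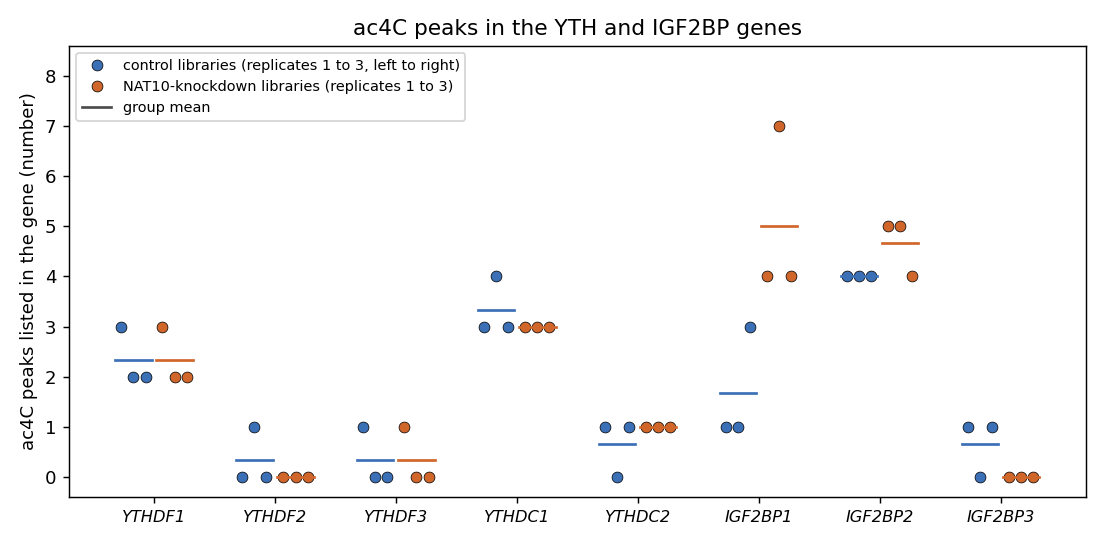
Number of ac4C peaks listed in each of the 8 genes (vertical axis), by library. Blue points are the 3 shControl and orange points the 3 shNAT10 (NAT10-knockdown) libraries, replicates 1 to 3 from left to right, and short lines are group means. IGF2BP1 is the only gene of the 8 whose groups do not overlap, with 1, 1 and 3 peaks in shControl and 4, 7 and 4 in shNAT10 libraries.

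All 8 genes were listed by at least 1 library, and 4 of them, YTHDF1, YTHDC1, IGF2BP1 and IGF2BP2, by all 6. Across all genes with a peak, 48.6% were listed by all 6. No member was listed by all 3 libraries of a group while the opposite group lacked it. Of all genes with a peak, 0.334% were listed by the 3 shControl libraries alone and 0.366% by the 3 shNAT10 libraries alone. Peaks of the 6 libraries that shared at least 1 base on a strand were merged into regions, which gave 24 regions in the members, numbered from each gene's 5′ end. Of these, 8 (33.3%) were found in all 6 libraries and 4 (16.7%) in 1, against 22.0% and 38.7% of all 41755 regions. Among the 20 member regions listed by 2 or more libraries, 15 (75%) had exactly the same start and end in every library that listed them, and the other 5 shared one of the 2 edges. Over all regions, 60.6% had the same start and end. Which of these edges are exon borders, and which regions are coding, was not analysed here.

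Of the 24 regions, 7 began within 1000 bases of the annotated gene start, 1 in every member but YTHDF2. Of these 7, 4 were in all 6 libraries. The same counts over all regions are not given here, so these are no trait particular to the members. Scores start at 50 and many stop at 3100, the value reached or passed by 7.85% to 14.1% of the peaks of a library. The 5′ regions of YTHDC1 and IGF2BP2 stood at 3100 in all 6 libraries, and that of YTHDF1 in 5, with 2894 in shControl replicate 1. At that value a difference between the groups cannot be seen.

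YTHDF1, a cytoplasmic reader linked to translation, lies on the minus strand of chromosome 20 from 63195429 to 63216131. It held 3, 2 and 2 peaks in shControl and 3, 2 and 2 in shNAT10 libraries. shControl replicate 1 and shNAT10 replicate 1 each listed another peak, a long one of 1521 bases, that no other library had, at the same coordinates in both (63202287 to 63203807). The region that stood out, singled out after its values were seen, was region 2, of 80 bases, which ran from 63213864 to 63213943 in all 6 libraries, 2188 bases inside the gene. Its score was 50.8, 81.4 and 113 in shControl and 821, 500 and 263 in shNAT10 libraries. All 3 shNAT10 values were above all 3 shControl values. Among all peaks of the same library it stood at the 0.54, 15.1 and 22.5 percentile in shControl and at the 66.6, 58.5 and 42.4 percentile in shNAT10 libraries. The mean was 12.7 ± 11.2 (SD, n = 3) in shControl and 55.8 ± 12.3 (SD, n = 3) in shNAT10 libraries, a difference of 43.1 points (adjusted p = 0.817 over 8262 regions, from an exact two-sided permutation p of 0.1, which is the lowest this design allows). Of those 8262 regions, listed by all 6 libraries and not at 3100 in all, 7.77% had percentiles that were all higher in shNAT10 and 4.47% all higher in shControl libraries, so 1 of the 6 member regions in that set, with 0 in the opposite direction, is no result about the members as a group. When ranked only among the 9195 regions that every library listed, the peak stood at 0.12, 3.12 and 4.32 in shControl and 30.6, 34.5 and 15.5 in shNAT10 libraries, again without overlap. By those ranks, 5.94% of all such regions were all higher in shNAT10 and 5.66% all higher in shControl libraries.

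YTHDF2, which leads marked mRNAs to deadenylation and decay, spans 28736624 to 28769775 on the plus strand of chromosome 1. A single peak was listed there, in shControl replicate 2, of 80 bases and 1635 bases inside the gene, with a score at the 18.5 percentile of its library. YTHDF3, which works with both other YTHDF proteins, also held few peaks. shControl replicate 1 and shNAT10 replicate 1 each listed 1 peak of 349 bases that opened at the first base of the gene, with a score of 3100 in both, and the other libraries listed none. These are the same libraries that shared the long YTHDF1 peak. A peak at 3100 in 1 library of each group with none in the other 4 is a difference between libraries, not between the groups. Presence did not pass the test in either gene (Fisher's exact test, two-sided, p = 1 in both). With 3 libraries against 3 this test cannot go below 0.1, so no pattern of presence could pass it at 0.05.

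YTHDC1, the nuclear reader, lies on the minus strand of chromosome 4 from 68310387 to 68350090. It held 3, 4 and 3 peaks in shControl and 3, 3 and 3 in shNAT10 libraries. Its 5′ region of 364 bases and a second region of 424 bases, 12640 bases inside the gene, had the same edges in all 6 libraries. Region 2 ranked at the 87.5, 87.9 and 65.4 percentile in shControl and at the 92.7, 52.9 and 83.3 percentile in shNAT10 libraries, so the groups overlapped (two-sided exact permutation test, p = 0.8; adjusted p = 0.992 over 8262 regions). Toward the 3′ end, region 3, at 85.5% of the gene span, was listed by shControl replicates 1 and 2 and by all shNAT10 libraries. Region 4, at 90.6% of the span, was listed by shControl replicates 2 and 3, at the 53.4 and 44.4 percentile, and by no shNAT10 library.

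YTHDC2, the RNA helicase among the YTH proteins, lies on the plus strand of chromosome 5 from 113513694 to 113595284 and held 1 peak at its 5′ end in 5 of the 6 libraries, all but shControl replicate 2. The peak always ended 388 bases inside the gene and opened between 11 bases before and 5 bases after the annotated start. It ranked at the 63.7 and 37.0 percentile in shControl replicates 1 and 3 and at the 39.1, 4.1 and 22.0 percentile in shNAT10 replicates 1 to 3. The shNAT10 values were thus spread from the bottom of the list to just above the lower shControl value. With only the 50% of peaks that scored highest, the peak was left in shControl replicate 1 alone.

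IGF2BP1 was the gene of the 8 in which the groups separated by the number of listed peaks, before any scaling. It lies on the plus strand of chromosome 17 from 48996558 to 49056145 and held 1, 1 and 3 peaks in shControl and 4, 7 and 4 in shNAT10 libraries, with means of 1.67 ± 1.15 (SD, n = 3) and 5.0 ± 1.73 (SD, n = 3). Every shNAT10 library listed more peaks than any shControl library (two-sided exact permutation test, p = 0.1; adjusted p = 1 over 12283 genes). Of all genes with a peak, 52 (0.423%) had a mean that was higher in shNAT10 libraries by at least the 3.33 peaks of IGF2BP1. IGF2BP1 held 20 peaks over the 6 libraries, against a median of 7 for genes with a peak. Genes with few peaks can hardly reach such a difference, so this share does not show how rare IGF2BP1 is. Numbers were all higher in shNAT10 libraries in 1.57% of genes with a peak and all higher in shControl libraries in 0.651%. The peaks covered 509, 509 and 914 bases in shControl and 1029, 1298 and 1049 bases in shNAT10 libraries.

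The IGF2BP1 peaks shared by the shNAT10 libraries lay near the 5′ end and between 70.1% and 75.3% of the gene span. A first region of 509 bases, 854 bases inside the gene, was listed with the same edges by all 6 libraries. Region 4 (49038168 to 49038449, 282 bases, at 70.1% of the span), region 5 (49039957 to 49040091, 135 bases, at 72.9%) and region 6 (49041378 to 49041500, 123 bases, at 75.3%) were each listed by all 3 shNAT10 libraries. shControl replicate 3 listed regions 4 and 6, and shControl replicates 1 and 2 listed none of the 3. Region 5 was therefore in all shNAT10 and in no shControl libraries, as were 0.819% of all 41755 regions. The opposite pattern held for 0.34% of all regions and for 0 of the 24 member regions. Region 5 was not a strong peak. It ranked at the 5.87, 31.8 and 30.9 percentile in shNAT10 replicates 1 to 3. Region 4 ranked at the 58.6 percentile in shControl replicate 3 and at 18.8, 57.6 and 56.3 in shNAT10 replicates 1 to 3. Region 6 ranked at 25.0 in shControl replicate 3 and at 6.35, 11.4 and 15.3 in shNAT10 replicates 1 to 3. In both regions the shControl listing thus ranked above every shNAT10 listing. shNAT10 replicate 2, the library with the fewest peaks in all (17877), listed 3 more regions of 49, 64 and 136 bases in the same gene, at 48.8%, 59.4% and 76.8% of the span, that no other library had. Those 3 regions ranked at the 5.54, 22.6 and 5.32 percentile of that library. shNAT10 replicate 1, with the most peaks (28752), listed 4 peaks in the gene.

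The first IGF2BP1 region ranked at the 80.9, 81.7 and 46.9 percentile in shControl and at the 92.7, 87.5 and 81.5 percentile in shNAT10 libraries, where shNAT10 replicate 1 was at 3100. shNAT10 replicate 3 was just below shControl replicate 2, so the groups overlapped, with means of 69.8 ± 19.9 (SD, n = 3) and 87.2 ± 5.61 (SD, n = 3) (two-sided exact permutation test, p = 0.2; adjusted p = 0.896 over 8262 regions). Without shControl replicate 3 the difference went from 17.4 to 5.93 points. The scores as deposited, 1130, 1490 and 311 in shControl and 3100, 2777 and 1964 in shNAT10 libraries, did not overlap, but their scale can differ between libraries. By scores as deposited, 12.3% of the 8262 regions were all higher in shNAT10 and 1.71% all higher in shControl libraries, and of the 6 member regions among them this one and YTHDF1 region 2 were all higher in shNAT10 libraries. The separation in peak number depended on how the lists were scaled. When each list was cut to the 17877 peaks with the highest scores, IGF2BP1 held 1, 1 and 3 peaks in shControl and 1, 7 and 4 in shNAT10 libraries. Per 10000 peaks of the library the groups also overlapped (difference 1.64, two-sided exact permutation test, p = 0.2).

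IGF2BP2, the widely expressed member of its family, lies on the minus strand of chromosome 3 from 185643130 to 185825042 and had the most peaks of the 8 genes when the 6 libraries are summed, with 4, 4 and 4 in shControl and 5, 5 and 4 in shNAT10 libraries (exact permutation test, two-sided, p = 0.4; adjusted p = 1 over 12283 genes). Its 5′ region of 274 bases and 2 inner regions of 49 and 82 bases were listed by all 6 libraries with the same edges. The region of 49 bases, at 69.7% of the span, ranked at the 67.0, 61.2 and 60.4 percentile in shControl and at the 51.6, 64.6 and 61.4 percentile in shNAT10 libraries. The region of 82 bases, at 72.7%, ranked at 42.1, 76.0 and 33.2 in shControl and at 62.1, 48.2 and 52.5 in shNAT10 libraries. Neither separated the groups (two-sided exact permutation tests, p = 0.6 and p = 0.8; adjusted p = 0.963 and 0.992 over 8262 regions). The other 3 regions were each listed by 1 shControl library and by 1 or 2 shNAT10 libraries. Among the genes with peak numbers nearest to those of IGF2BP2 over the 6 libraries were POLR2F and HAUS7, each differing by 1 peak in 1 library.

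IGF2BP3, on the minus strand of chromosome 7 from 23310209 to 23470491, held peaks in shControl libraries only. A 5′ peak of 532 bases, from 23469936 to 23470467, was listed by shControl replicates 1 and 3, at the 18.5 and 32.0 percentile, and by no other library. Presence in 2 of 3 shControl libraries and 0 of 3 shNAT10 libraries did not pass the test (two-sided Fisher's exact test, p = 0.4; 3 against 3 cannot go below 0.1).

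**Figure D2:**
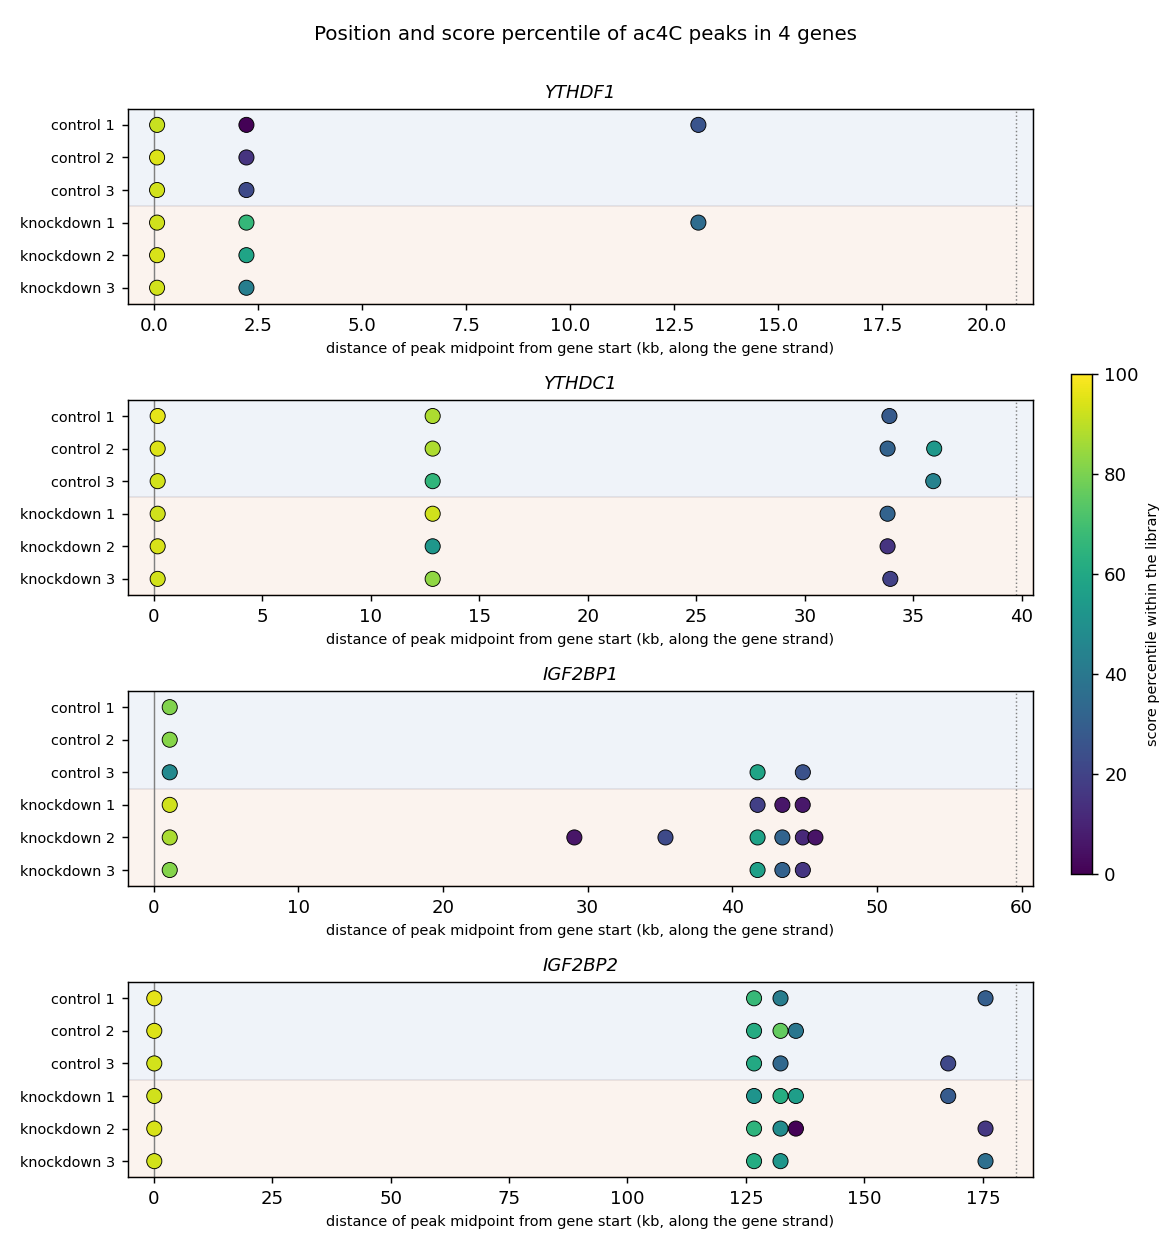
Position of each listed ac4C peak in the 4 members found in all 6 libraries, as the distance of its midpoint from the annotated gene start in kb along the gene's strand (horizontal axis), with 1 row per library. Colour is the score percentile within the library, blue shading marks shControl and orange shading shNAT10 (NAT10-knockdown) libraries, and the solid and dotted lines mark the gene start and end. IGF2BP1 has peaks between 70.1% and 75.3% of its span in all 3 shNAT10 libraries and in shControl replicate 3, and the second YTHDF1 peak has a lower percentile (darker) in shControl than in shNAT10 libraries.

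Over the 8 genes, the median place of a peak along the gene, from 0 at its start to 1 at its end, was 0.0631, 0.216 and 0.216 in shControl and 0.632, 0.645 and 0.510 in shNAT10 libraries. All shNAT10 values were higher (two-sided exact permutation test, p = 0.1). The separation rested on IGF2BP1. Without it the medians were 0.108, 0.324 and 0.108 in shControl and 0.324, 0.324 and 0.216 in shNAT10 libraries, and the groups overlapped (two-sided exact permutation test, p = 0.4). Among the 50% of peaks that scored highest, the difference was -0.0141 in place of 0.431, and with equal peak numbers per library it was 0.143 (exact permutation test, two-sided, p = 0.8).

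**Figure D3:**
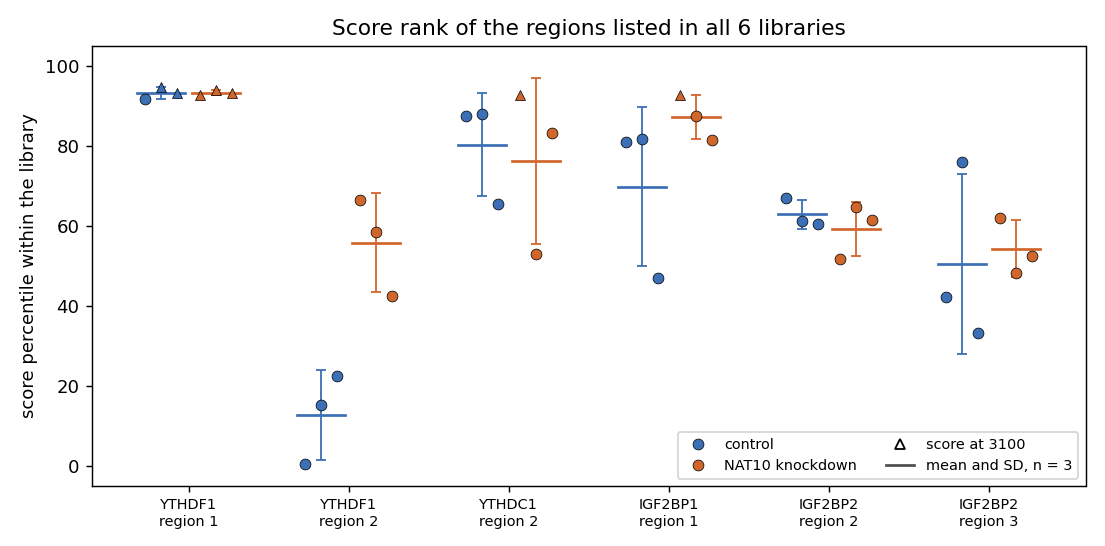
Score percentile within the library (vertical axis) of the 6 member regions listed by all 6 libraries and not at 3100 in all of them. Blue is shControl, orange shNAT10, triangles are peaks at a score of 3100, and bars are the mean and SD of 3 libraries. YTHDF1 region 2 is the one region without overlap, with means of 12.7 in shControl and 55.8 in shNAT10 libraries.

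Around the readers, of 12 other proteins described as m6A readers 11 had a peak and 5 had one in all libraries, and none separated the groups by peak number. FXR2, a relative of the fragile X protein, held 4 peaks in every library. Of 14 m6A writers and erasers all had a peak and 10 had one in all 6 libraries. One of them, ZC3H13, a subunit of the methyltransferase complex, held 6, 6 and 6 peaks in shControl and 9, 8 and 7 in shNAT10 libraries (two-sided exact permutation test, p = 0.1; adjusted p = 1 over 12283 genes). Over all genes with a peak, 1.57% had numbers all higher in shNAT10 and 0.651% all higher in shControl libraries. The numbers of ZC3H13 were not scaled to the peaks of each library. Of 13 partners of the readers in decay, export and stabilisation, 11 had a peak, 7 in all 6 libraries, and none separated the groups. Over the genes with a peak, the median over the 6 libraries together was 7, 7 and 6 peaks per gene in the 3 lists, against 7 for all genes with a peak.

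NAT10 itself held 1, 0 and 2 peaks in shControl and 2, 0 and 1 in shNAT10 libraries, which does not measure its mRNA and cannot check the knockdown. Of 10 genes of the colon epithelium 7 had a peak, 5 of them in all 6 libraries, among them EPCAM with 1 peak in each, and CDX1, KRT18 and KRT20 had none. Of 8 genes of other cell types, only VWF and COL1A1 had peaks, neither in all 6 libraries.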

How the data were processed

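Of 12 samples, the 6 immunoprecipitated libraries were used and the 6 inputs were not used here. The authors called peaks per library (names as MACS writes them, GRCh38 per the submitters' processing notes) and deposited a score per peak, used here as a percentile within its library with average ranks for ties. Caller version and settings are not given in the sources used here. Starts were converted from 0-based to 1-based.

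Peaks were assigned by midpoint and strand to 20050 protein-coding genes of RefSeq GRCh38.p14, which took 96.2% to 96.9% of a library's peaks. Strand came from the promoter table for 15843 genes and from the majority of peaks for 2384 (YTHDF3 and IGF2BP1 among them), and 1823 genes without either were not used. Where both exist, they match for 96.7% of genes. Groups were compared by exact permutation tests over libraries with Benjamini-Hochberg adjustment over all genes or regions, and presence by Fisher's exact test. Named genes are the members, NAT10, the nearest genes to the member with most peaks (not all are reported here), and list genes whose groups separated. FXR2 and the cell type genes were named after their values were seen. Members and lists were chosen with earlier results of these data known, and values without IGF2BP1 and ranks among shared regions were chosen after seeing the data. The labels do not say whether replicates are separate cultures, so p-values measure only the spread between libraries. The code was tested on simulated data. Python 3.11.15, numpy 2.4.6, scipy 1.17.1, pandas 2.3.3 and matplotlib 3.10.9 were used.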

Additional observations from a re-analysis of the deposited data

How the results depend on the processing

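Values are shNAT10 minus shControl unless they are counts. Gene assignment without strand, by any overlap and by peaks in the span of 1 gene gave the same values in the members. When only the upper 50% of peaks by score were kept, the difference in median place turned to -0.0141, that in YTHDC2 peaks from 0.333 to -0.333, and both the number of members whose peak numbers did not overlap and the number of all-or-none regions went from 1 to 0. With equal peak numbers per library both were also 0, and the difference in bases covered in the 8 genes went from 276 to -473. Per 10000 peaks of the library 0 members separated. A difference of at least 2 libraries gave 1 member (IGF2BP3, higher in shControl) and 5 regions, 3 higher in shNAT10 and 2 in shControl. Over all genes this criterion called 3.5% higher in shNAT10 and 4.17% in shControl, and over all regions 5.92% and 4.07%. The median percentile over the peaks of IGF2BP1 differed by -43.6 points, against 13.5 for its highest-scored peak, and that over the peaks of YTHDF1 by 23.9, against 0.0717. With the lowest rank for ties the highest-scored YTHDF1 peak, at 3100 in 5 libraries, moved to -2.51 points. Without IGF2BP1 the peaks in the other genes together differed by -0.333 in place of 3. The cause of these changes was not tested, except that a looser criterion calls more.

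With each library left out in turn, members without overlap ranged from 1 to 2 (2 without shControl replicate 2, where IGF2BP3 was added, or without shNAT10 replicate 3, where IGF2BP2 was added), all-or-none members from 0 to 1 (IGF2BP3, without shControl replicate 2), all-or-none regions from 1 to 3 (3 without shControl replicate 3, 2 without shControl replicate 1 or 2), the share of library peaks from -0.000213 (without shNAT10 replicate 2) to 0.0206 percentage points, covered bases from -301 (without shNAT10 replicate 1; -230 without shControl replicate 2) to 954, the sum of peaks from 2.17 to 4.17, the median place from 0.380 to 0.474, and the highest YTHDF1 percentile from -0.716 to 0.862. The IGF2BP1 difference stayed between 2.33 and 4.0 peaks, and that of YTHDF1 region 2 between 37.0 and 49.8 points.

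Replicate pairing is undecided, as only matched deviations were correlated (0.0295, 0.00234 and 0.0318). With the replicate block the difference in peaks stayed 3 (exact sign-flip permutation test, p = 0.5; smallest possible 0.25), and in IGF2BP1 3.33 (exact sign-flip permutation test, p = 0.25). Covered bases were run under the alternatives for the sum and for IGF2BP1, and score ranks for YTHDF1 and IGF2BP1, since YTHDC1 and IGF2BP2 stood at 3100 in all libraries. As the depth is unknown, an unlisted peak may only be too weak to be called.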
